A study of Mus musculus with 4 samples.

Results

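The 42 genes described here carry a cell through its division, and they were chosen by name from general knowledge of the cell cycle. No measured value was part of the rule, but earlier results of these data were known when the genes and lists were chosen. All 42 were among the 12800 genes of the count table of single microglia. The question was which cells hold many of their transcripts, in which of 4 libraries, and how the level of each gene differs between libraries. The cells came from 4 groups of male mice of 12 to 14 months, kept for 12 weeks on their diet. A wild-type group received control diet, and wild-type, Trem2 heterozygous (+/-) and Trem2 knockout (-/-) groups received 0.2% cuprizone. Cuprizone is a copper chelator that kills oligodendrocytes and strips myelin, and Trem2 encodes a lipid-sensing receptor of microglia. The knockout allele is not described in the sources used here. Live CD11b+ CD45low cells were sorted, 30000 from each of 2 hemibrains, and both hemibrains were pooled into 1 droplet library per group. No difference below therefore has a replicate check, and no p-value is given. All intervals are exact 95% intervals and cover counting error only.

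A dividing cell first licenses its replication origins with the MCM helicase, then copies its DNA with PCNA, DNA ligase and a fresh supply of nucleotides, and finally condenses and separates its chromosomes under the control of cyclin B and Cdk1. The genes of mitosis are kept low in resting cells and are switched on together, so that a cell holding several of them at once is usually near division. Microglia renew themselves slowly in the healthy adult brain and divide more often after damage, including the loss of myelin. The 42 genes were put into 3 lists. The mitotic list holds 18 genes that are made mainly around mitosis, such as Mki67, Top2a and Ccnb1. The replication list holds 14 genes such as Pcna, Mcm5 and Rrm2. The remaining 10, such as Tubb5, H2afz and Hmgb2, are also made in resting cells.

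The promoters of 4 genes are printed because these genes stand on either side of the results below: Ccnb2 and Ube2c are mitotic genes, Mcm5 and Mcm6 replication genes. Each runs from 250 bases before to 50 bases after the start of the gene on its own strand (RefSeq, GRCm38.p6). Capitals mark 3 motifs on either strand: CCAAT, the CHR element (TTTGAA or TTCGAA) of late cell cycle genes, and the E2F element (TTGGCGC or TTCCCGC) of replication genes. Overlapping matches were counted separately. Ccnb2 lies at chr9:70421505-70421804 on the minus strand, Ube2c at chr2:164769679-164769978 on the plus strand, Mcm5 at chr8:75109259-75109558 on the plus strand and Mcm6 at chr1:128359656-128359955 on the minus strand.
Ccnb2: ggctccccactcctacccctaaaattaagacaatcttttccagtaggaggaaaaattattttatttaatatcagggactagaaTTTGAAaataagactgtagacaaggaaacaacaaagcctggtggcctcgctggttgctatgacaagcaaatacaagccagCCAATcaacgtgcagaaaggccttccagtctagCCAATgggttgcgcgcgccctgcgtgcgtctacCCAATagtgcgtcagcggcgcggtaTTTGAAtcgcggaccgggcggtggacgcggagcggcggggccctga
Ube2c: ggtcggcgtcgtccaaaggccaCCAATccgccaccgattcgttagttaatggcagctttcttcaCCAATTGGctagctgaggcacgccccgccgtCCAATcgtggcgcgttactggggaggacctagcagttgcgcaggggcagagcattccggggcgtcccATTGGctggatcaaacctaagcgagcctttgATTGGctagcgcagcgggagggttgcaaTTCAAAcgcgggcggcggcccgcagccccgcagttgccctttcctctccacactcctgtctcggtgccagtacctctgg
Mcm5: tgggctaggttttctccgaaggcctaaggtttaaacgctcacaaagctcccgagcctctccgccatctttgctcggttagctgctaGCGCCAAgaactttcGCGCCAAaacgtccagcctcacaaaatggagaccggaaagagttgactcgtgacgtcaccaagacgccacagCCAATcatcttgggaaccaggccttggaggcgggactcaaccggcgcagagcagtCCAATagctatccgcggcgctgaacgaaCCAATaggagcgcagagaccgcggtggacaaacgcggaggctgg
Mcm6: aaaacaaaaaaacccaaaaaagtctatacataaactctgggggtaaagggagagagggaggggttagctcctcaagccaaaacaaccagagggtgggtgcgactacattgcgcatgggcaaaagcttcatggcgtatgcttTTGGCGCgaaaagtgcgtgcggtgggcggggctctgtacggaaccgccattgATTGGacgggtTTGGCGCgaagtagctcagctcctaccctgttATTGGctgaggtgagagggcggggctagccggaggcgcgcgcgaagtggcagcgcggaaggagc

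The Ccnb2 promoter held 3 CCAAT and 2 CHR matches and no E2F match, and that of Ube2c held 6 CCAAT and 1 CHR match and no E2F match. Those of Mcm5 and Mcm6 each held 2 E2F matches and no CHR match. Of the 42 genes, 34 had a promoter in the table. A CCAAT match was found for 13 of 15 mitotic genes (86.7%), 9 of 13 replication genes (69.2%) and 41.1% of the 27025 genes of the table. A CHR match was found for 11 of 15 mitotic genes (73.3%), for 2 of 13 replication genes (15.4%) and for 21.7% of all genes. An E2F match was found for 3 of 15 mitotic genes (20%), 7 of 13 replication genes (53.8%) and 7.79% of all genes. A match is a description of these letters and not a site of binding.

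The libraries held 571 cells (wild type, control diet), 765 (wild type, cuprizone), 802 (heterozygote) and 885 (knockout), with 4747730, 7006408, 7465251 and 7849741 UMIs. A UMI, or unique molecular identifier, marks 1 captured transcript at its 3′ end. Median depth per cell ran from 5220 UMIs on control diet to 6848 in the heterozygote. The level of Trem2 checked the labels: over all cells it was 2988 UMIs per 1000000 UMIs (CPM) on control diet, 2782 in wild type on cuprizone, 1675 in the heterozygote and 494 in the knockout. All 11 microglia markers were present in each library. Over all cells, 10 neutrophil markers summed to 1.62 per 10000 UMIs on control diet, 17.96 in wild type on cuprizone, 53.4 in the heterozygote and 25.6 in the knockout, so transcripts of another cell type differed between the libraries. Of all cell barcodes, 8 occurred in 2 libraries, and no cell with such a barcode had more than 1 mitotic gene. No doublet caller was run, and how the authors treated doublets is not given in the sources used here.

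Together the 42 genes had 38126 UMIs, of which Tubb5, H2afz and Hmgb2 held 68.1%. They made up 0.121% of UMIs on control diet, 0.145% in wild type on cuprizone, 0.164% in the heterozygote and 0.127% in the knockout. Only 17 of the 42 were among the genes the authors analysed for their clusters. The median cell held 7 UMIs of the 42 genes on control diet, 9 in wild type on cuprizone, 9 in the heterozygote and 8 in the knockout, whereas the highest cell held 75, 219, 384 and 314. Most cells were thus alike across libraries and a few cells stood far above them.

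Cells were counted as rich in cell cycle transcripts when they held a UMI of at least 3 different mitotic genes. Of 3023 cells 56 did (1.85%, 1.40 to 2.40). No mitotic transcript was found in 2572 cells, 358 cells had 1 such gene and 37 had 2, while 10 had exactly 3. The limit cuts a range and does not define a cell type, and it does not by itself show that a cell was dividing. The 56 cells were deep, with a median of 14852 UMIs against 6303 in the other cells.

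The heterozygote held the most of these cells. They were 7 of 571 on control diet (1.23%, 0.494 to 2.51), 12 of 765 in wild type on cuprizone (1.57%, 0.813 to 2.72), 28 of 802 in the heterozygote (3.49%, 2.33 to 5.01) and 9 of 885 in the knockout (1.02%, 0.466 to 1.92). The interval of the heterozygote overlapped those of both wild-type libraries and lay above that of the knockout. A limit of 11 mitotic genes, chosen after seeing the data, lies just above the highest number on control diet. Cells past it numbered 0 on control diet, which allows a share of up to 0.525%, 6 in wild type on cuprizone (0.784%), 14 in the heterozygote (1.75%) and 5 in the knockout (0.565%). The richest control-diet cell had 10 mitotic genes, and it was also among the deepest, with 30370 UMIs. When each cell was thinned to 2915 UMIs and shallower cells were left out (75, 73, 59 and 92 cells in the order above), a mean of 1.05, 6.85, 15.4 and 6.45 cells remained past the limit over 20 draws, or 0.212%, 0.990%, 2.07% and 0.813%. Without thinning, 7, 10, 28 and 8 of the same cells were past it.

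**Figure D1:**
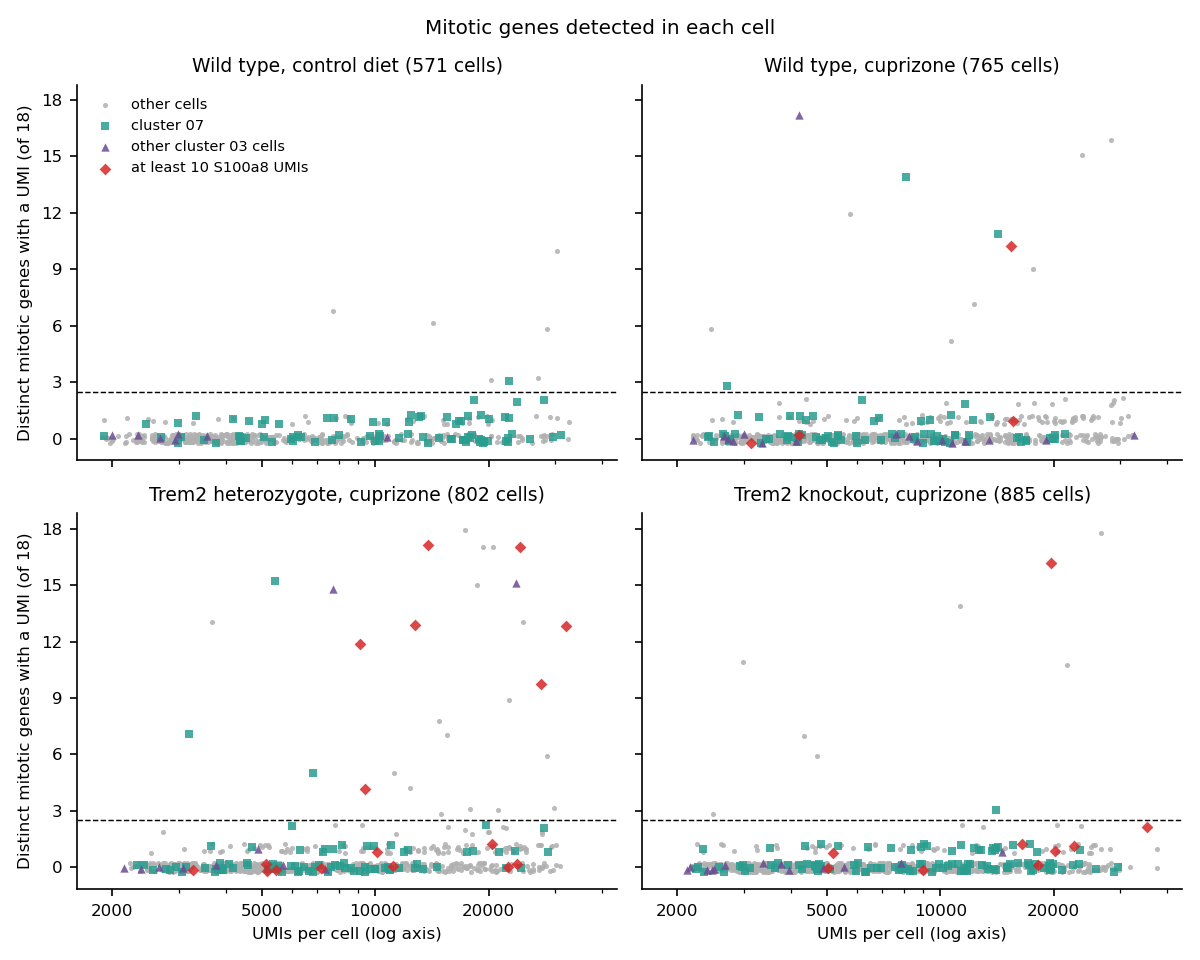
Each point is a cell, with its UMIs on a log axis and the number of mitotic genes (of 18) with a UMI on the vertical axis, spread by a small random shift; the dashed line marks the limit of 3 genes. On control diet 7 cells lie above the line and none has more than 10 genes, while 28 heterozygote cells lie above it, 14 of them with at least 11 genes and 1 with 18.

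Some of these cells carried transcripts of neutrophils and their precursors, which divide in the marrow. S100a8, an abundant transcript of neutrophils, was spread thinly over many cells: at least 1 UMI was found in 0.175% of cells on control diet, 13.2% in wild type on cuprizone, 41.3% in the heterozygote and 25.2% in the knockout. No cell had between 6 and 9 UMIs. Only 30 cells had 10 or more, from 35 upward, and they numbered 0, 4, 17 and 9 in the same order. Of the 56 cells 9 were among these 30: 1 in wild type on cuprizone, 7 in the heterozygote and 1 in the knockout. Neutrophil markers had a median of 2403 per 10000 UMIs in the 9 cells and neutrophil precursor markers 994. Ngp, Camp and Ltf are in both lists, so the second value is not separate evidence of precursors. Elane and Mpo, which are in the precursor list only, had 577 and 72 UMIs in 1 cell and 153 and 27 in another. In the rest of the 9 cells Mpo had 0 UMIs and Elane at most 3. Microglia markers had a median of 108, with a range of 15.6 to 213, so transcripts of both kinds were found in these cells. Of the 9 cells 7 lay in the authors' cluster 03 and 2 in cluster 02.

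Leaving such cells out lowered the share of the heterozygote, and also that of wild type on cuprizone. Without cluster 03 the shares were 1.24% on control diet (7 cells), 1.34% in wild type on cuprizone (10), 2.69% in the heterozygote (21) and 0.923% in the knockout (8). Without any cell carrying an S100a8 UMI they were 1.23% (7), 1.05% (7), 2.34% (11) and 1.06% (7), over 570, 664, 471 and 662 cells. Without both they were 1.24%, 0.926%, 2.36% and 1.08%. Without cluster 03 and only the cells with 10 or more S100a8 UMIs, a limit chosen after seeing the data, they were 1.24%, 1.34%, 2.45% (1.48 to 3.80) and 0.927% (0.401 to 1.82). The heterozygote stayed the highest in each of these counts, and its interval overlapped those of the other libraries in each. With a limit on the summed members instead, at least 0.5% of the UMIs of a cell, and without clusters 03 and 07 and cells with 10 or more S100a8 UMIs, the counts were 1, 7, 8 and 8 cells, or 0.209%, 1.06%, 1.16% and 1.07%. By that measure and in those cells the 3 cuprizone libraries lay close together, and the heterozygote did not stand out. The limit and the cells were changed together here. Over all cells, the 30 with the highest summed members per 10000 UMIs came 8 from wild type on cuprizone, 16 from the heterozygote and 6 from the knockout.

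By cluster, the share was highest in cluster 03, with 10 of 66 cells (15.2%, 7.51 to 26.1), of which 7 came from the 20 heterozygote cells there. Cluster 02, the deepest with a median of 16984.5 UMIs per cell, held 22 of 580 (3.79%, 2.39 to 5.69). Its 22 cells were 4 on control diet, 4 in wild type on cuprizone, 11 in the heterozygote and 3 in the knockout. Cluster 04, with 6 cells on control diet and 13 in the knockout, held 7 of 291 (2.41%, 0.972 to 4.89), with 5 of 150 in the heterozygote and 1 of 122 in wild type on cuprizone. Cluster 07, whose chosen cells carried border macrophage markers at a median of 28.0 per 10000 UMIs, held 8 of 367 (2.18%, 0.946 to 4.25). Clusters 01, 05 and 06 held 2 of 435, 2 of 449 and 5 of 494. Cluster 08 held 0 of 341, with an upper bound of 1.08%. Cells rich in mitotic transcripts were thus spread over 7 of the 8 clusters. Of the 30 cells with the highest summed UMIs, 11 lay in cluster 02, 9 in cluster 03 and none in cluster 01 or 08. They came 0, 7, 18 and 5 from the libraries in the order above, and 8 had 10 or more S100a8 UMIs. Ranked per 10000 UMIs of the cell instead, the highest 30 came 0, 8, 16 and 6 from the libraries. Of these, 12 lay in cluster 03, 5 in cluster 06, 4 in cluster 02, 4 in cluster 07 and 2 in cluster 01.

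Outside clusters 03 and 07 and without cells of 10 or more S100a8 UMIs, 36 of the 56 cells remained, and these carried microglia transcripts. All 11 microglia markers were present, with a median of 286 per 10000 UMIs against 361 in the other cells of the same clusters. Their neutrophil markers had a median of 2.39 against 2.20. These 36 cells were 6 on control diet, 7 in wild type on cuprizone, 16 in the heterozygote and 7 in the knockout. P2ry12, a purine receptor of resting microglia, was lower in them in each library: medians were 20.4 against 34.5 per 10000 UMIs on control diet, 13.1 against 23.5 in wild type on cuprizone, 13.5 against 24.8 in the heterozygote and 16.5 against 28.5 in the knockout. Cx3cr1, the fractalkine receptor of microglia, was higher in 3 of the 4, at 29.7 against 22.2, 13.8 against 16.9, 23.1 against 18.1 and 21.2 against 17.6. P2ry12 and Cx3cr1 thus did not differ in the same direction in each library. Apoe, a lipid carrier of activated microglia, was by its medians likewise higher in 3 of the 4, at 49.1 against 17.7, 84.6 against 49.2, 156 against 116 and 59.3 against 62.2. Pooled over the cells, Apoe had 71.0 against 48.8 per 10000 UMIs, 148 against 205, 180 against 323 and 163 against 153. The direction of Apoe thus depended on the measure in each library but control diet. Depth differed as well, with a median of 17448 UMIs in the 36 cells and 6105 in the others, and its part in these differences was not tested.

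The replication genes were not used to choose the 56 cells, and they were higher in them in each library. Per 10000 UMIs the 14 genes summed to 3.84 in the chosen and 1.54 in the other cells on control diet, a ratio of 2.49 (1.87 to 3.25). The ratio was 7.60 (6.49 to 8.86) in wild type on cuprizone, 6.55 (5.88 to 7.30) in the heterozygote and 7.12 (5.78 to 8.69) in the knockout. The intervals of the 3 cuprizone libraries overlapped each other and lay above that of control diet. The chosen cells also differed in kind: in the order above, 0, 2, 7 and 1 lay in cluster 03, and 0, 1, 7 and 1 had 10 or more S100a8 UMIs. In wild type on cuprizone 1 such cell, with 1484 S100a8 UMIs, held 67 of the 193 replication UMIs of the chosen cells. The part of these cells in the ratios was not tested. Of the 7 chosen control-diet cells, a mean of 1.05 stayed past the limit after thinning, and the part of depth in their lower ratio was not tested. The 10 genes also made in resting cells gave 1.87 (1.65 to 2.11), 5.38 (5.01 to 5.78), 5.15 (4.92 to 5.40) and 5.91 (5.45 to 6.41). The chosen cells themselves held 3.84 replication UMIs per 10000 on control diet, and 13.3, 10.4 and 9.91 in wild type on cuprizone, the heterozygote and the knockout. Pclaf, a partner of PCNA at the fork, and Rrm2, the regulated subunit of ribonucleotide reductase, had 94.3% and 91.7% of their UMIs in the 56 cells, although neither chose them. Pcna had 8.02% there, Mcm3 6.52%, Tubb5 9.27%, H2afz 11.9% and Ccnd1 2.68%, against 3.23% of all UMIs. Among genes outside the list, the leading ones in the 36 microglia-marked cells were Pbk, Prc1, Cdca3, Pimreg, Plk1, Cdca8, Kif22, Lockd, Cenpm and Racgap1, most of which act in mitosis. Pbk, a mitotic kinase, had 66 UMIs in the 36 cells and 4 in the other cells. In all 56 cells the leading genes also included Elane, Prtn3 and Mpo, which are granule enzymes of neutrophil precursors, and Mcpt8 and Prss34, proteases of basophils. A single cell held 78.1% of the Elane UMIs of the chosen cells and all of their Mcpt8 UMIs lay in 1 cell.

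Within the mitotic list the genes differed in how closely they followed the others. Mki67, the antigen used to stain dividing cells, was detected in 37 cells and Top2a, which untangles replicated DNA, in 53, with both in 27. A cell with Mki67 held a median of 12 other mitotic genes, and one with Ccnb1, the cyclin that starts mitosis, a median of 13. Cdk1, the kinase it activates, was found in 160 cells and Cenpa, the histone of the centromere, in 169, and the median cell with either held 0 others. Of their UMIs 49.0% and 44.0% lay in the 56 cells, against 94.4% for Mki67, 95.3% for Ube2c and 96.6% for Ccnb1. Cdk1 or Cenpa was therefore often found in cells with no other mitotic transcript.

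**Figure D2:**
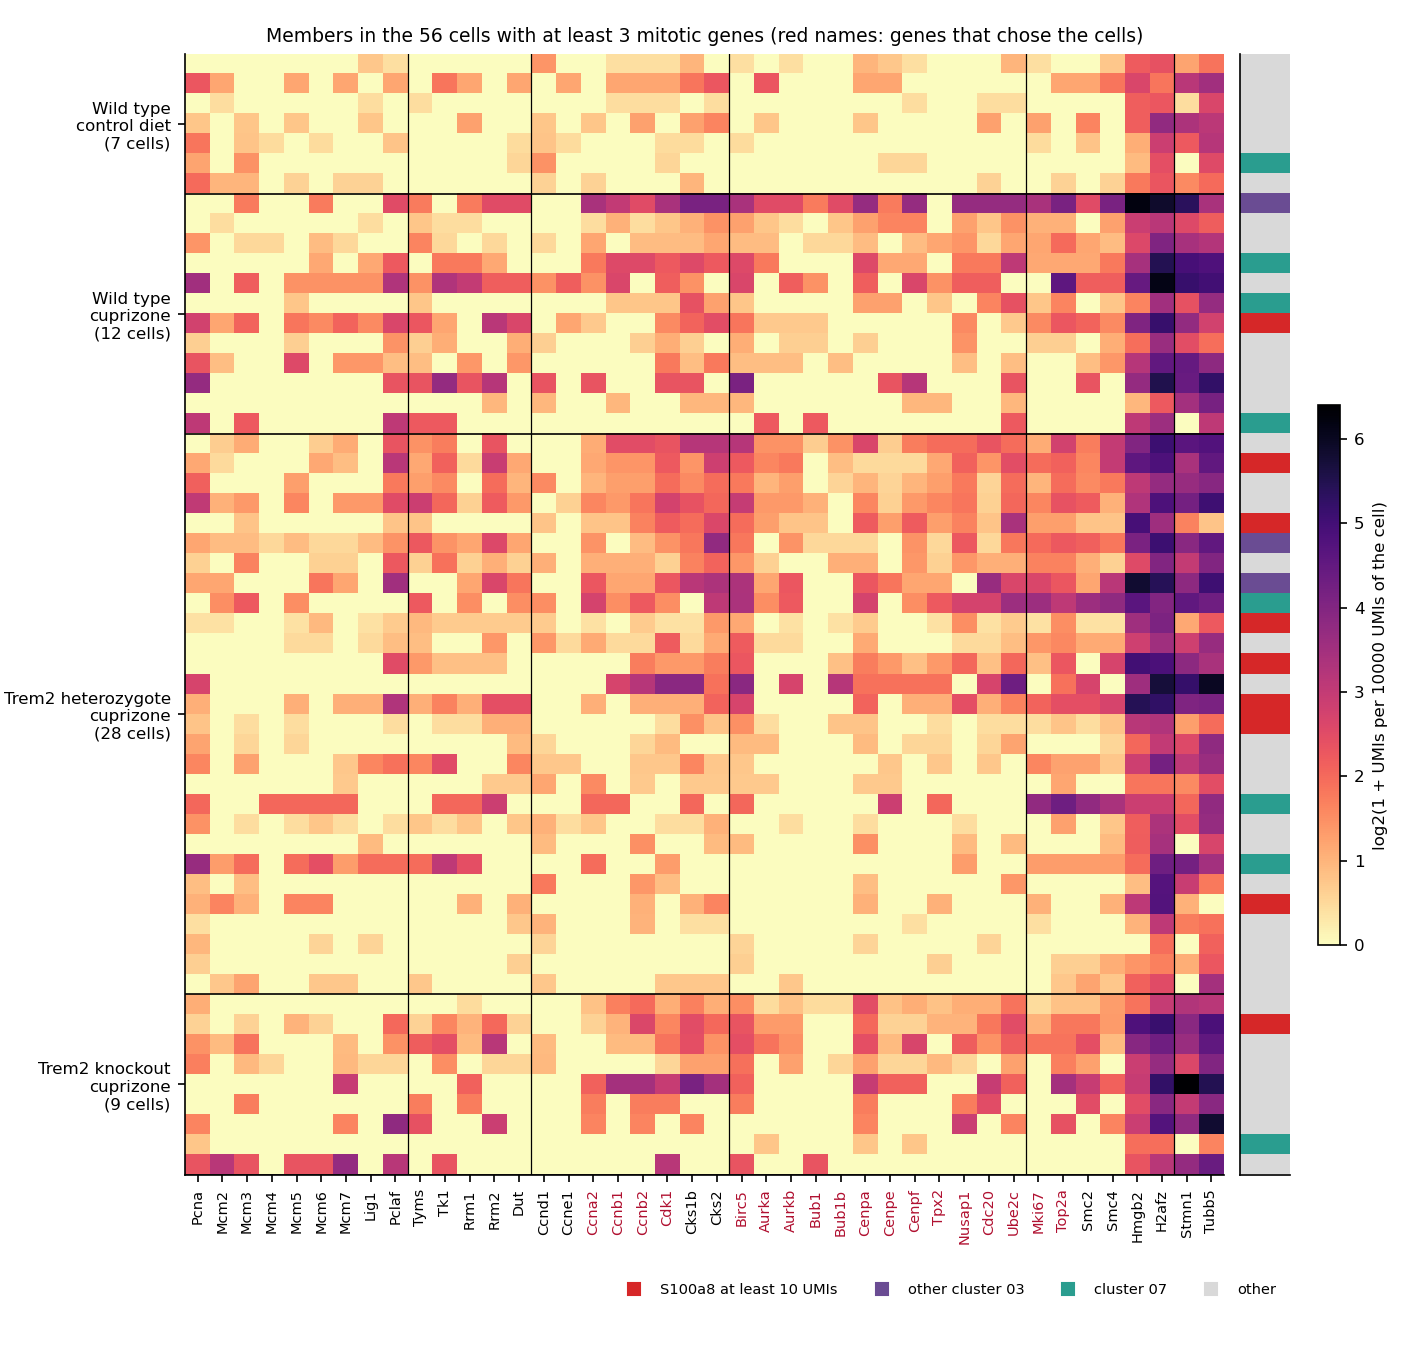
Each row is 1 of the 56 cells, grouped by library, and each column a member, grouped by role in the order of the text; the colour gives log2(1 + UMIs per 10000 UMIs of the cell) and the strip at the right the cell's class. The 14 heterozygote cells with at least 11 mitotic genes form a dense block at the top of their library, and no control-diet row is as full.

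Levels of the 42 genes were then compared between libraries over the 6 clusters other than 03 and 07, with 479, 663, 695 and 753 cells and 3638474, 6175520, 6552603 and 6514310 UMIs. In these clusters the neutrophil markers summed to 1.72, 1.91, 19.4 and 7.99 per 10000 UMIs. In such sums, more dividing cells and more RNA per cell cannot be told apart. A gene was called higher or lower where its CPM differed by at least 1.5-fold, the interval of the ratio excluded 1 and both libraries together held at least 50 UMIs. A gene that is rare in 1 library can reach 50 UMIs only through the other, as Pclaf, Tk1, Rrm2, Ccnb2, Birc5, Ube2c and Top2a did in the heterozygote. Against control diet, Mcm5 and Cdk1 did so through wild type on cuprizone, with 49 UMIs each there and 11 and 14 on control diet. The counts below therefore describe these genes and are no test of the list.

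In wild type, 3 of the 20 members with 50 UMIs were higher on cuprizone than on control diet and none was lower, where 2.59% of all genes were higher and 4.44% lower. The 3 were Mcm5, Mcm6 and Cdk1, and none of them was called without cells carrying an S100a8 UMI (0 of 17). The median log2 ratio of the 20 was 0.27, against -0.11 over all genes. The knockout against wild type on cuprizone gave 6 lower of 22 and none higher, where 3.86% of all genes were lower and 1.64% higher: Mcm5, Mcm6, Lig1, Cks2, Smc2 and Smc4. The median was -0.28, against -0.00 over all genes. The heterozygote against wild type on cuprizone gave 7 higher of 27 and none lower, where 1.32% of all genes were higher and 1.17% lower: Pclaf, Dut, Cdk1, Birc5, Cenpa, Ube2c and Top2a. Its median was 0.08, against -0.01. The knockout against the heterozygote gave 10 lower of 28 and none higher, where 3.64% and 1.3% of all genes were: Tk1, Rrm2, Ccnb2, Cdk1, Cks2, Birc5, Cenpa, Ube2c, Top2a and Smc4. Its median was -0.45, against 0.01. These comparisons share libraries, so a high value in the wild type or the heterozygote on cuprizone enters more than 1 of them.

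**Figure D3:**
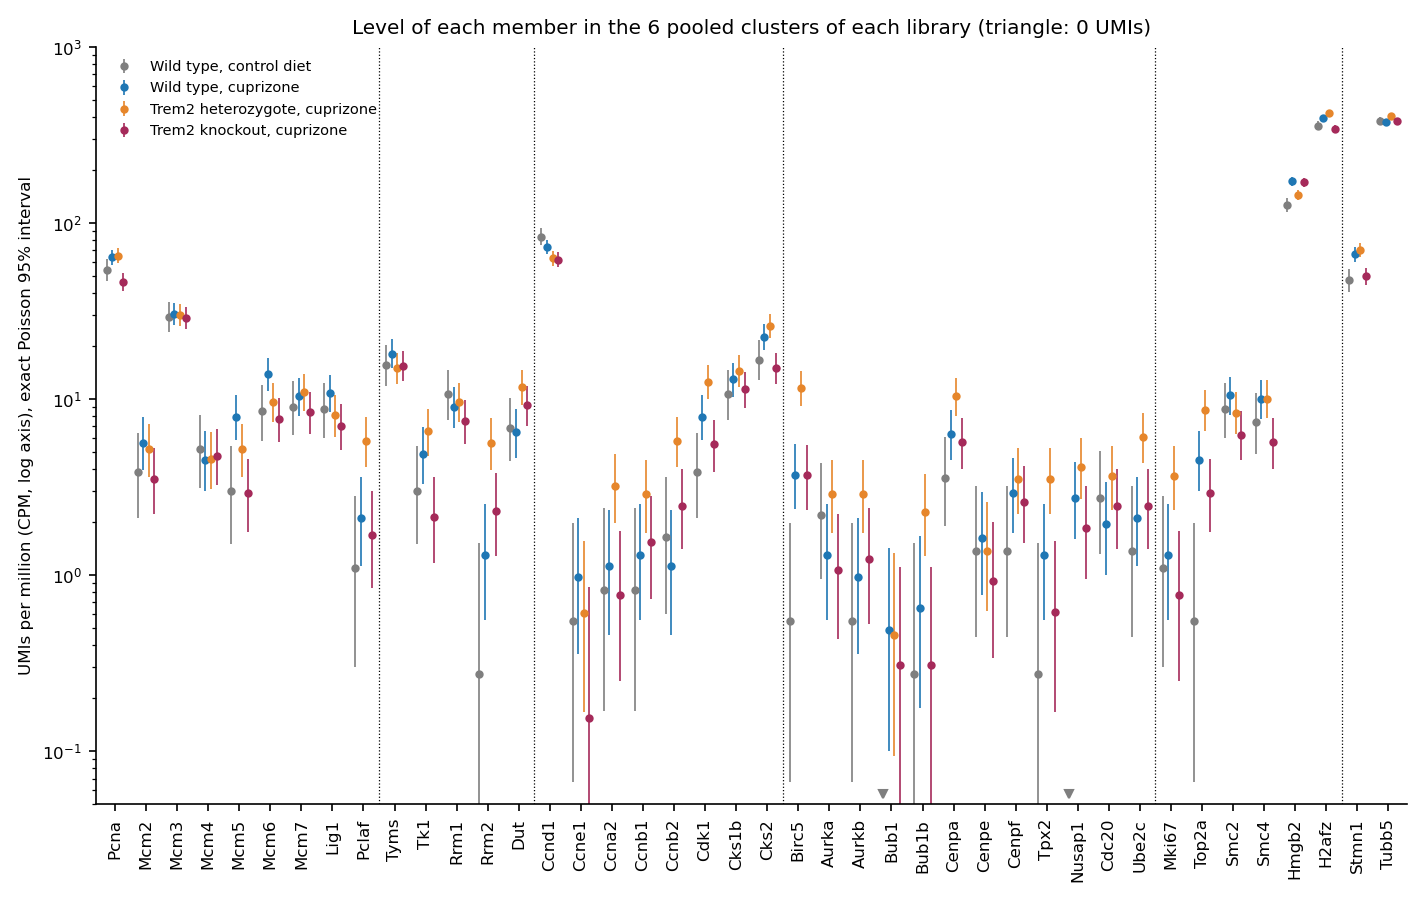
Level of each of the 42 members in the 6 pooled clusters, in CPM on a log axis with exact Poisson 95% intervals, for the 4 libraries; triangles at the bottom mark 0 UMIs. Of the 18 mitotic genes 16 are highest in the heterozygote, while Pcna, Tubb5, H2afz and Ccnd1 stay within 1.5-fold in each comparison.

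The 9 genes of licensing and the replication fork summed to 123 CPM on control diet (112 to 135), 150 in wild type on cuprizone (141 to 160), 145 in the heterozygote (136 to 155) and 111 in the knockout (103 to 120). The wild type and the heterozygote on cuprizone lay above the other 2 libraries. Mcm5, a subunit of the MCM helicase, had 11 UMIs (3.02 CPM) on control diet, 49 (7.93) in wild type on cuprizone, 34 (5.19) in the heterozygote and 19 (2.92) in the knockout. It was 2.62-fold higher on cuprizone in wild type (1.35 to 5.60) and 2.72-fold lower in the knockout than in wild type on cuprizone (1.57 to 4.89). Mcm6, its partner in the same ring, had 31 UMIs (8.52 CPM), 86 (13.9), 63 (9.61) and 50 (7.68), with ratios of 1.63-fold higher (1.07 to 2.55) and 1.81-fold lower (1.27 to 2.63). Mcm3, another subunit, lay at 29.4, 30.6, 30.2 and 29.0 CPM, Mcm4 ran from 4.53 to 5.22 CPM, and Mcm2 and Mcm7 were called in no comparison. In the knockout against wild type on cuprizone, Mcm2 had a ratio of 0.623 (0.351 to 1.08) and Mcm7 of 0.815 (0.558 to 1.19), and both intervals overlapped that of Mcm6. Pcna, the sliding clamp, had 54.4, 64.1, 65.3 and 46.4 CPM, and its ratio of 0.723 (0.620 to 0.842) in the knockout against wild type on cuprizone did not reach 1.5-fold. Lig1, which joins Okazaki fragments, had 8.79, 10.8, 8.09 and 7.06 CPM and was 1.54-fold lower in that comparison (1.04 to 2.29). Pclaf had 4 UMIs (1.10 CPM), 13 (2.11), 38 (5.80) and 11 (1.69), and was 2.75-fold higher in the heterozygote than in wild type on cuprizone (1.44 to 5.64).

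The 5 genes of nucleotide supply summed to 36.6, 39.8, 48.5 and 36.7 CPM in the order control diet, wild type on cuprizone, heterozygote and knockout. Dut, which removes dUTP, had 6.87, 6.48, 11.8 and 9.21 CPM, and it was 1.81-fold higher in the heterozygote than in wild type on cuprizone (1.22 to 2.73). Tk1, thymidine kinase, had 3.02, 4.86, 6.56 and 2.15 CPM and was 3.05-fold lower in the knockout than in the heterozygote (1.64 to 6.04). Rrm2 had 1 UMI on control diet, 8 in wild type on cuprizone, 37 in the heterozygote and 15 in the knockout, and was 2.45-fold lower in the knockout than in the heterozygote (1.31 to 4.81). Tyms, thymidylate synthase, had 57, 112, 98 and 101 UMIs, with ratios between 0.825 and 1.16 in the comparisons. Rrm1, the constant subunit of ribonucleotide reductase, had 10.7, 9.07, 9.61 and 7.52 CPM. Dut, Tk1 and Rrm2 were thus each called in 1 comparison, and Tyms and Rrm1 in none.

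Cyclins, their kinase and its subunits summed to 119, 121, 129 and 98.9 CPM. Most of this was Ccnd1, the cyclin of the G1 phase, at 83.8, 73.4, 63.2 and 62.0 CPM, highest on control diet and past 1.5-fold in no comparison. Cdk1 had 14 UMIs (3.85 CPM), 49 (7.93), 82 (12.5) and 36 (5.53). It was 2.06-fold higher on cuprizone in wild type (1.12 to 4.04), 1.58-fold higher in the heterozygote than in wild type on cuprizone (1.09 to 2.30) and 2.26-fold lower in the knockout than in the heterozygote (1.51 to 3.45). Ccnb2, a B-type cyclin, had 6 UMIs (1.65 CPM), 7 (1.13), 38 (5.80) and 16 (2.46), and was 2.36-fold lower in the knockout than in the heterozygote (1.29 to 4.54). Cks2, a small subunit bound to Cdk1, had 61, 140, 171 and 98 UMIs. It was 1.51-fold lower in the knockout than in wild type on cuprizone (1.16 to 1.97) and 1.73-fold lower than in the heterozygote (1.35 to 2.25). Its paralog Cks1b had 39, 80, 95 and 74 UMIs and was past 1.5-fold in no comparison. Ccna2, Ccnb1 and Ccne1 had under 50 UMIs in each pair of libraries. Cdk1, Cks1b and Cks2 were highest in the heterozygote. Ccnb2 was too, but it reached 50 UMIs only through that library.

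The 12 genes of the spindle, the kinetochore and the exit from mitosis differed most. They summed to 52 UMIs (14.3 CPM, 10.7 to 18.7) on control diet, 161 (26.1, 22.2 to 30.4) in wild type on cuprizone, 346 (52.8, 47.4 to 58.7) in the heterozygote and 151 (23.2, 19.6 to 27.2) in the knockout. By these intervals the heterozygote lay above all others and control diet below all others, and wild type and knockout on cuprizone overlapped. The intervals treat each UMI as independent, although the UMIs lay together in few cells. A single heterozygote cell held 97 of the 587 mitotic UMIs of its library in these clusters, and the intervals do not cover such clustering. Birc5, survivin of the chromosomal passenger complex, had 2 UMIs (0.550 CPM), 23 (3.72), 76 (11.6) and 24 (3.68). It was 3.11-fold higher in the heterozygote than in wild type on cuprizone (1.93 to 5.20) and 3.15-fold lower in the knockout than in the heterozygote (1.97 to 5.21). Ube2c, the conjugating enzyme that marks cyclin B for destruction, had 5 UMIs (1.37 CPM), 13 (2.11), 40 (6.10) and 16 (2.46), with ratios of 2.90-fold higher (1.52 to 5.91) and 2.49-fold lower (1.36 to 4.75) in the same comparisons. Cenpa had 3.57, 6.32, 10.4 and 5.68 CPM, with 1.64-fold higher (1.09 to 2.50) and 1.83-fold lower (1.21 to 2.81). The kinases Aurka, Aurkb, Bub1 and Bub1b, the motor Cenpe, and Cenpf, Tpx2, Nusap1 and Cdc20 had under 50 UMIs in each pair. Nusap1, which bundles spindle fibres, had 0 UMIs on control diet, 17 in wild type on cuprizone, 27 in the heterozygote and 12 in the knockout.

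Genes of chromosome structure were dominated by H2afz, a histone variant, at 358, 394, 420 and 344 CPM, and Hmgb2, a DNA-bending protein, at 127, 173, 144 and 170 CPM. Neither was past 1.5-fold, although the interval of the ratio excluded 1 for both between control diet and cuprizone in wild type, at 1.10 (1.03 to 1.18) and 1.36 (1.22 to 1.52). Top2a had 2 UMIs (0.550 CPM), 28 (4.53), 57 (8.70) and 19 (2.92), and was 1.92-fold higher in the heterozygote than in wild type on cuprizone (1.20 to 3.13) and 2.98-fold lower in the knockout than in the heterozygote (1.75 to 5.31). Mki67 had 4, 8, 24 and 5 UMIs and did not reach 50 in any pair. The condensin subunits Smc2 and Smc4 had 8.79, 10.5, 8.39 and 6.29 CPM and 7.42, 10.0, 10.1 and 5.68 CPM. They were 1.67-fold (1.11 to 2.54) and 1.77-fold (1.16 to 2.73) lower in the knockout than in wild type on cuprizone. Of the tubulin genes, Tubb5 held 382, 375, 406 and 379 CPM and did not follow the others, while Stmn1, which destabilises microtubules, had 47.3, 66.4, 70.4 and 49.7 CPM, with a ratio of 1.40 (1.17 to 1.69) on cuprizone in wild type and 0.749 (0.646 to 0.869) in the knockout against wild type. Counts of H2afz and Tubb5 may include reads of close paralogs, and Pcna, Tyms, Ccnb1, Ccnb2 and Stmn1 have named pseudogenes that the counting could have split from them.

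The calls of the heterozygote changed once the few chosen cells were left out. Without the cells of at least 3 mitotic genes, the heterozygote against wild type on cuprizone gave 1 member higher (Dut) and 6 lower (Mcm5, Mcm6, Tyms, Cks1b, Smc2 and Smc4) of 22, where 1.17% of all genes were higher and 1.23% lower. The median log2 ratio of the members turned from 0.08 to -0.17. The knockout against the heterozygote then gave 0 of 19 in either direction, where 3.4% of all genes were lower and 1.51% higher. Only 19 members, in place of 28, had enough UMIs to be tested there. In that comparison the mitotic sum was still lower in the knockout, with a ratio of 0.500 (0.367 to 0.677). The replication sum was lower too, with a ratio of 0.849 (0.775 to 0.931). The knockout against wild type on cuprizone still gave 5 lower (Mcm5, Mcm6, Cks2, Smc2 and Smc4) of 21, where 3.85% of all genes were, and 1 higher (Dut), where 1.68% were. In wild type 1 of 17 (Mcm6) was higher on cuprizone and 0 were lower, where 2.59% and 4.36% of all genes were. Leaving out these cells removes by construction most mitotic UMIs, from 587 to 129 in the heterozygote, from 268 to 109 in wild type on cuprizone and from 242 to 67 in the knockout. The replication genes, which did not choose the cells, had a ratio of 0.775 (0.708 to 0.848) in the knockout against wild type on cuprizone without them, and 0.780 (0.715 to 0.850) with them. The lower replication transcripts of the knockout were thus found in cells with fewer than 3 mitotic genes too. Its mitotic ratio to wild type on cuprizone was 0.580 (0.421 to 0.793) without the chosen cells.

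Cells carrying any S100a8 UMI made up a different share of each library, and the calls also changed without them. In wild type, 0 of 17 members were then higher or lower on cuprizone, where 2.35% of all genes were higher and 4.43% lower. The mitotic sum had a ratio of 1.18 (0.893 to 1.57) in place of 1.88 (1.47 to 2.43), and the replication sum one of 1.08 (0.973 to 1.20) in place of 1.19 (1.07 to 1.31). The knockout against wild type on cuprizone gave 1 higher (Dut) and 1 lower (Mcm5) of 20, where 1.66% and 3.6% of all genes were. Its mitotic ratio turned from 0.856 (0.716 to 1.02) to 1.68 (1.35 to 2.11), and its replication ratio moved from 0.780 to 0.890 (0.802 to 0.986). The heterozygote against wild type on cuprizone gave 3 higher (Dut, Cdk1 and Cenpa) of 19 and 0 lower, where 1.29% and 1.63% of all genes were. Its mitotic ratio was 3.01 (2.43 to 3.74) in place of 2.06 (1.78 to 2.39). The knockout against the heterozygote gave 2 lower (Cdk1 and Cks2) of 17 and 0 higher, where 2.87% and 1.63% of all genes were, and its mitotic ratio was 0.560 (0.461 to 0.680) in place of 0.415 (0.356 to 0.482). The mitotic sum was thus highest in the heterozygote with and without these cells, while the order of wild type and knockout on cuprizone depended on them. The part of neutrophil transcripts in these changes was not tested.

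**Figure D4:**
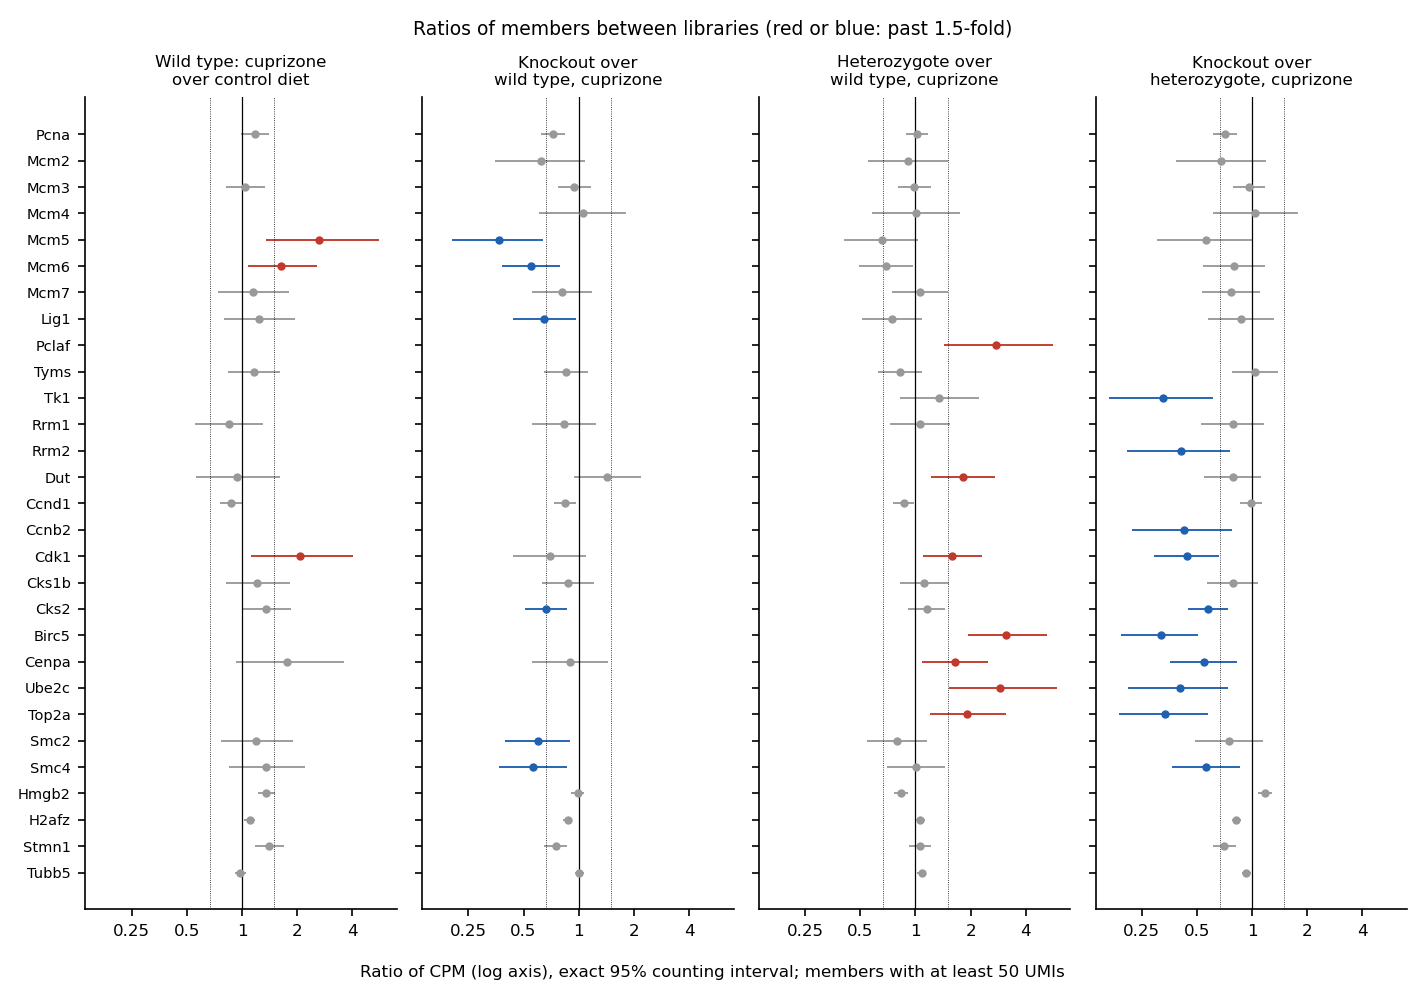
Ratio of CPM between libraries for the members with at least 50 UMIs in the pair, on a log axis with exact 95% counting intervals; red and blue mark members at least 1.5-fold higher or lower, and dotted lines stand at 1.5-fold. Mcm5 and Mcm6 are higher on cuprizone in wild type and lower in the knockout, and Mcm5 reached 50 UMIs there only through wild type on cuprizone. Birc5, Ube2c and Top2a, which reached 50 UMIs only through the heterozygote, differ between it and both other cuprizone libraries.

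Other genes of the cycle were taken from 4 further lists. Of 14 kinases, inhibitors and E2F or Rb genes with 50 UMIs, 2 were called higher on cuprizone in wild type and none lower, where 2.59% of all genes were higher. They were the inhibitors Cdkn1a (p21), at 101 and 161 CPM, 1.59-fold (1.41 to 1.80), and Cdkn2c (p18), at 5.50 and 12.1 CPM, 2.21-fold (1.33 to 3.82). None of this list was called in the other 3 comparisons. Of other replication genes, Gins2, of the helicase complex, was 1.84-fold higher on cuprizone in wild type (1.03 to 3.46), 1 of 8 beside the same 2.59%. In the knockout against wild type on cuprizone 2 of 9 were called lower, where 3.86% of all genes were: Gmnn, geminin, which blocks relicensing, by 2.08-fold (1.36 to 3.24), and Rfc4, of the clamp loader, by 1.66-fold (1.05 to 2.65). Orc6, of the origin recognition complex, was 1.58-fold higher in the heterozygote than in wild type on cuprizone (1.07 to 2.36), 1 of 9, where 1.32% of all genes were higher. Of other mitotic genes few had 50 UMIs. Spc24, of the kinetochore, lay at 21.7 CPM on control diet, 10.4 in wild type on cuprizone and 6.29 in the knockout. On cuprizone in wild type it went the other way from the called members, 2.10-fold lower (1.49 to 2.96). It was 1.65-fold lower in the knockout than in wild type on cuprizone (1.10 to 2.50), the direction of the called members there. Cdca3 was 2.56-fold higher in the heterozygote than in wild type on cuprizone (1.35 to 5.11). None of the 8 genes of chromatin and tubulin made in S phase or growth was past 1.5-fold in any comparison, and none of the 4 lists held a gene called between the knockout and the heterozygote.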

How the data were processed

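The files hold UMI counts per gene and cell, as deposited, from 10x 3′ v2 libraries; the authors' processing used Cell Ranger 2.1.1 with mm10, per the submitters' processing notes. The authors removed low-quality cells and combined the 4 libraries, per the notes deposited with the files. Cluster numbers and the 4895 analysed genes are the authors' own. Genes and lists were chosen with earlier results of these data known. UMIs were summed over cells per library and scaled to CPM, leaving out clusters 03 and 07. With 1 library per group, no test between conditions was made. Ratios carry exact conditional binomial, levels exact Poisson and shares exact binomial (Clopper-Pearson) 95% intervals, for counting error only. Named in full were the 3 members with the most UMIs in each role group and each member past 1.5-fold, plus Trem2, genes of the other cycle lists past 1.5-fold, and the 10 genes outside the list that led the chosen cells; further genes were named after their values were seen. A gene needed 50 UMIs over both libraries to be called. The calling was tested on simulated Poisson counts per library, the model that the intervals assume. The simulation held no variation between cells or libraries, so it could not show how such variation affects the calls. Alternatives changed the cells pooled, the scaling (TMM, edgeR 4.0.16, R 4.3.3), the weight of cells, the UMI minimum and the limit on mitotic genes; those with 10 or more S100a8 UMIs and with 11 mitotic genes were chosen after seeing the data. Python 3.11.15, numpy 2.4.6, pandas 2.3.3, scipy 1.17.1 and matplotlib 3.10.9 were used.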

Additional observations from a re-analysis of the deposited data

How the results depend on the processing

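No paired analysis was possible because each group has 1 library. No replicate could be left out for the same reason. In the order cuprizone against control diet in wild type, knockout against wild type, heterozygote against wild type and knockout against heterozygote, the pool gave 3 members higher, 6 lower, 7 higher and 10 lower, with ratios of summed members of 1.12, 0.895, 1.05 and 0.849. With all cells, the 4 gave 6 higher, 8 lower, 14 higher and 18 lower, of 23, 27, 34 and 33 members. Of all genes 3.19%, 4.19%, 1.69% and 3.71% were called in those directions. The ratio was then 1.20 in the first, 1.13 in the heterozygote against wild type and 0.778 in the knockout against the heterozygote. Without cells with an S100a8 UMI, the 4 gave 0 higher, 1 higher with 1 lower, 3 higher and 2 lower, with ratios of 1.07, 0.960, 1.09 and 0.883. Without cells of at least 3 mitotic genes, they gave 1 higher, 1 higher with 5 lower, 1 higher with 6 lower, and 0 lower. The ratio of the heterozygote to wild type then turned to 0.932 and that of the knockout to the heterozygote was 0.959. The log2 ratio of Pclaf in the heterozygote against wild type turned from 1.46 to -0.029 and that of Cdk1 from 0.66 to -0.11. TMM scaling moved the median of all genes by 0.12 on the log2 scale in the first comparison. There 5 of 20 members were then higher, where 3.81% of all genes were, and the ratio was 1.22. With a mean over cells of per-cell CPM, calls used the 1.5-fold limit without an interval. The first then gave 5 of 20 higher, where 4.32% of all genes were, and a ratio of 1.18. The heterozygote against wild type gave 3 higher and 3 lower of 27, where 3.73% and 3.04% of all genes were, with a turned ratio of 0.972 (Pclaf -0.17). The knockout against the heterozygote gave 5 lower of 28, where 5.49% of all genes were, with a ratio of 0.922. With a minimum of 20 UMIs, the 4 gave 5 higher, 7 lower, 13 higher and 16 lower, of 27, 32, 38 and 38 members. Of all genes 2.83%, 4.27%, 1.7% and 4.08% were called in those directions. Without cells of 10 or more S100a8 UMIs, 6 of 26 members were higher and 1 lower in the heterozygote than in wild type, where 1.2% and 1.17% of all genes were.

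The share of cells on control diet, 1.23%, was 0.175% by the share of UMIs, 0.212% after thinning and 0% at 11 mitotic genes. In wild type on cuprizone, 1.57% became 3.27% at 2 genes and 0.784% at 11. In the heterozygote, 3.49% became 5.49% at 2 genes, 2.07% after thinning and 1.75% at 11. The cause of these changes was not tested, apart from the cells or counts each setting leaves out. Depth limits the 13 members with under 50 UMIs in each pair.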
